A study of Mus musculus with 6 samples.

Results

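The transcription factors described here were Trp63, Sox2, Pax9, Klf4, Klf5, Grhl1, Grhl3, Zfp750 and Elf5. They were chosen by name as regulators of squamous identity and differentiation, with earlier results of these data known. They make up 9 of the 32285 genes in the deposited tables. All 9 were present in each of the 6 single-cell libraries. The libraries came from mouse esophageal organoids of the strain C57BL6. Founder cells were sorted basal cells, positive for integrin-b1 and negative for DAPI, and were separated by low or high signal for Cyto-ID, a dye that stains autophagic vesicles. Both groups were grown in Matrigel and collected at day 15, with replicates F2, M3 and F6 each, so the Cyto-ID state belongs to the founders and not to the sequenced cells. The labels do not say whether the replicates were separate animals, and p-values measure the spread between these libraries.

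Stratified squamous epithelium is renewed from basal cells that leave the basement membrane, stop dividing and build a barrier as they move outward. Trp63 encodes p63, a p53 relative that maintains the basal state, and Sox2 and Pax9 are developmental factors needed for esophageal identity. Klf4 and Klf5 are zinc-finger factors linked to differentiation and to basal growth. Grhl1 and Grhl3 are grainyhead factors of the epithelial barrier, Zfp750 is a p63 target that promotes terminal differentiation, and Elf5 is an epithelium-specific ETS factor.

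Cells with at least 500 detected genes were kept, which left 25154 of 26808 barcodes and a median of 1940.5 to 10038 unique molecular identifiers (UMIs) per cell. Each cell was placed by its Krt13 share, the percentage of Krt13 among its Krt13 and Krt14 UMIs, where Krt14 is a basal keratin and Krt13 the keratin of suprabasal esophageal cells. The 22799 cells with at least 10 such UMIs fell into 5 bins: a share under 5% (the Krt14 end, 9247 cells), 5 to 20% (4892), 20 to 50% (3375), 50 to 80% (2146) and at least 80% (the Krt13 end, 3139). Between 112 and 327 cells per library fell short of this minimum, except in Cyto-ID High F6, where 1400 of 4484 did. Cyto-ID High F6 had the lowest median, 1940.5 UMIs per cell. In Cyto-ID High M3, with a median of 2357 UMIs, 198 of 4483 cells fell short. The cause of this difference was not tested. Pairs of libraries shared between 0 and 10 barcodes. The median mitochondrial share per library was 2.00% to 2.91% at the Krt14 end and 0.604% to 1.29% at the Krt13 end. Summed markers of fibroblasts, endothelium, melanocytes or neurons, and columnar or ciliated cells stayed at or under 4.95 CPM, the UMIs of a gene scaled to a common total per cell, in every library. Summed immune markers reached 8.44 to 22.1 CPM with Ptprc and Cd207 at 0 in 6 of 6 libraries, and muscle markers 4.49 to 14.3 CPM. The immune sum averaged 10.6 CPM (Low) and 6.95 CPM (High) at the Krt14 end and 47.1 and 33.8 CPM at the Krt13 end, and its part in the changes along the axis was not tested. The basal sum includes Krt14 and the suprabasal sum Krt13, which define the axis. Part of the change in these sums is therefore set by the binning. Basal markers fell from a mean of 18191 CPM at the Krt14 end to 3224 at the Krt13 end in Cyto-ID Low libraries, and suprabasal markers were at 240.4 and 16615 CPM. In Cyto-ID High libraries basal markers went from 19027 to 3202 CPM and suprabasal markers, among them Krtdap, from 991 to 18181 CPM, so the suprabasal sum at the Krt14 end was higher than in the Low ones.

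In GENCODE M21 on GRCm38 the genes lie at chr16:25683763-25892102 (Trp63), chr3:34650405-34652461 (Sox2), chr12:56691767-56712822 (Pax9), chr4:55527143-55532466 (Klf4) and chr14:99298691-99315036 (Klf5). The others lie at chr12:24572283-24617391 (Grhl1), chr4:135541888-135573630 (Grhl3), chr11:121510978-121519333 (Zfp750) and chr2:103411688-103450989 (Elf5). Sox2 lies within Sox2ot on the same strand, which read 1.17 to 2.14 CPM. Zfp750 overlaps Tbcd on the opposite strand, which read 26.4 to 41.5 CPM, and Pax9 overlaps Slc25a21 and Gm15524, both under 1 CPM. How reads in these overlaps were assigned is not given in the sources used here.

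The 250 bases before the RefSeq start of Grhl3 (chr4:135573633-135573882, minus strand, GRCm38.p6) and Klf4 (chr4:55532476-55532725, minus strand) are shown because these genes both peaked in the 50 to 80% bin and were found together in more cells than their separate frequencies give. Capitals mark CACCC or its complement GGGTG, the core letters read by Klf factors, and the GC box GGGCGG or its complement CCGCCC; no exon of GENCODE M21 overlaps either window.
Grhl3: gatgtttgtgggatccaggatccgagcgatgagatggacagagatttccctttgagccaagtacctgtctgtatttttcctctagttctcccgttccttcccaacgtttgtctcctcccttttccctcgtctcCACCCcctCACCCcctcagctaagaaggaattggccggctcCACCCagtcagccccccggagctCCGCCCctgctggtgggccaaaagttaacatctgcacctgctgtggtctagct
Klf4: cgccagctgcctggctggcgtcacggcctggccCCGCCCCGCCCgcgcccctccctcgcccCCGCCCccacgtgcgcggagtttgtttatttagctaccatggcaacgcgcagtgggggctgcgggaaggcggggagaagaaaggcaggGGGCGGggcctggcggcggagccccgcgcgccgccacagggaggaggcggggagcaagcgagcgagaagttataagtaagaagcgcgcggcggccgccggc
The Grhl3 window held 3 CACCC matches and 1 GC box, and the Klf4 window 4 GC boxes, of which the first pair overlap, and 0 CACCC matches. Over 32851 RefSeq windows of this length, 52.0% held CACCC and 32.7% a GC box on either strand, so both are common letters. AACCNGTT, a grainyhead motif, was on either strand in 1.79% of all windows and in 0 of the 8 windows listed for Sox2, Pax9, Klf4, Grhl1, Grhl3 and Elf5.

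Along the axis from Krt14 to Krt13, Trp63 fell and Elf5, Grhl1, Zfp750, Pax9 and Grhl3 rose, while the call of Sox2, and both the call and the sign of Klf4 and Klf5, depended on how libraries were scaled. The test compared the Krt13 end with the Krt14 end within each library on log2(CPM + 1) values, a scale that understates the change of low genes, after scaling by trimmed means of M values (TMM). It called 7680 of 12118 genes at an adjusted p under 0.05 (limma, Benjamini-Hochberg), which is 63.4% of them, with 27.9% higher and 35.5% lower at the Krt13 end. Of the 9 factors, which were chosen with earlier results of these data known, 8 were higher and 1 lower. On plain CPM without TMM factors 73.2% of genes were called, 15.1% higher and 58.1% lower, and 5 factors were higher and 1 lower. The scaling moved the median of all genes from -0.13 to -0.63, and the share of called genes that were higher from 44.0% to 20.6%. The median change of the factors was 1.31 with TMM and 0.77 on plain CPM.

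**Figure D1:**
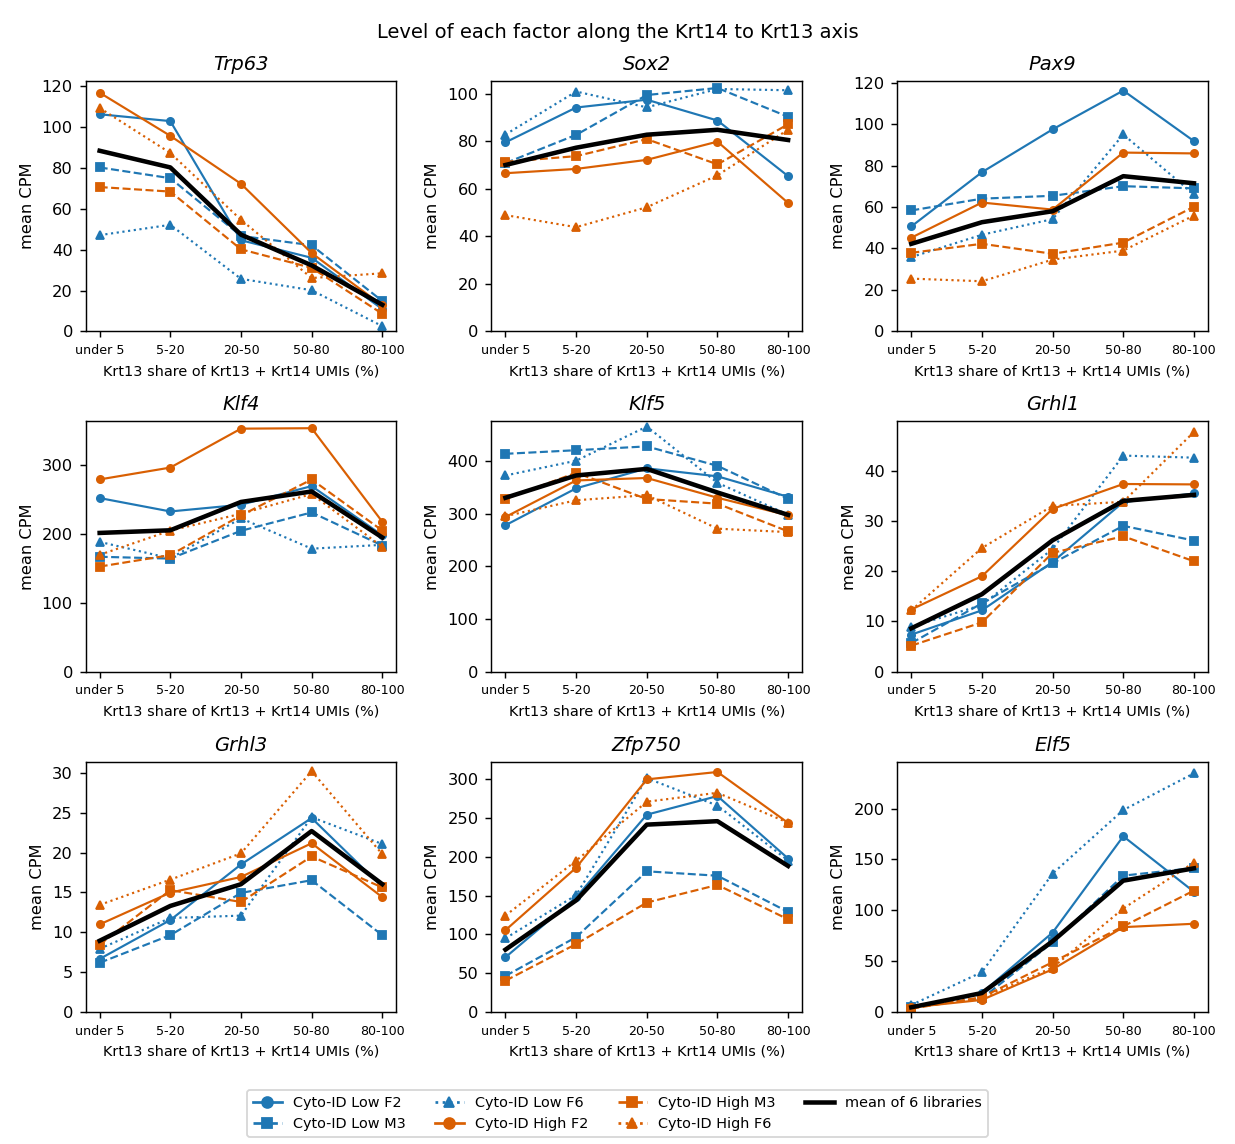
Mean plain CPM (y axes, linear, from 0) of each factor in 5 bins of the Krt13 share of Krt13 and Krt14 UMIs (x axes). Thin lines are the 6 libraries (blue Cyto-ID Low, orange Cyto-ID High; circles F2, squares M3, triangles F6) and the black line is their mean. Trp63 falls from a mean of 88.4 to 13.0 CPM and Elf5 rises from 4.58 to 141. Sox2 goes from 69.98 to 80.5 CPM, Klf4 from 201 to 195 and Klf5 from 330 to 298 on this plain scale, whereas with TMM scaling all 3 were higher at the Krt13 end.

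Trp63, the basal regulator, was the one factor called lower at the Krt13 end, on both scalings. At the Krt14 end it read 106, 80.2 and 47.1 CPM in Cyto-ID Low F2, M3 and F6 and 117, 70.6 and 109 CPM in Cyto-ID High F2, M3 and F6. At the Krt13 end the values in the same order were 10.97, 14.9 and 2.59 CPM and 12.7, 8.64 and 28.4 CPM. The ends did not overlap, and Cyto-ID High F6 stood highest at the Krt13 end. There the value of Cyto-ID Low F6 rests on 4 UMIs in 467 cells, and those of Cyto-ID High M3 and F6 on 16 UMIs each. The log2 change was -2.31 (SE 0.18; limma, adjusted p = 4.3e-07), lower in 6 of 6 libraries. The decline was gradual, with means of 80.2, 47.3 and 32.3 CPM in the 3 bins between the ends. After each cell was thinned to 1000 UMIs, which left out 10 to 115 cells per library, a Trp63 UMI was found in 8.31% of cells at the Krt14 end and 1.34% at the Krt13 end on average. RNA outside cells was not measured, so part of any such share may not come from the cell itself.

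Elf5 showed the largest change among the 9 on both scalings. At the Krt14 end it read 4.46, 4.54 and 6.80 CPM in Cyto-ID Low F2, M3 and F6 and 4.50, 3.20 and 4.02 CPM in Cyto-ID High F2, M3 and F6. At the Krt13 end it read 118, 142 and 235 CPM and 86.7, 119 and 147 CPM. Every library was thus low at the Krt14 end and high at the Krt13 end, with no overlap. The Krt14 end values of Cyto-ID Low F6, Cyto-ID High M3 and Cyto-ID High F6 rest on 18, 13 and 10 UMIs. The log2 change was 5.15 (SE 0.14; limma, adjusted p = 9.8e-11), above that of 99.6% of genes tested, and 4.63 on plain CPM. In thinned cells an Elf5 UMI was found in 0.480% of cells at the Krt14 end, in 6.58% of the middle bin and in 12.2% at the Krt13 end on average. The level was highest at the Krt13 end in 5 of 6 libraries on both scalings, and on plain CPM Cyto-ID Low F2 peaked in the 50 to 80% bin at 173 CPM.

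Both grainyhead genes rose from the Krt14 end. Grhl1 rose from 8.64 ± 3.13 CPM at the Krt14 end to 34.0 ± 5.78 in the 50 to 80% bin and 35.2 ± 9.74 at the Krt13 end (SD, n = 6). Its log2 change was 2.47 (SE 0.15; limma, adjusted p = 6.4e-08), higher in 6 of 6 libraries. Grhl3 rose from 8.93 ± 2.78 to 22.7 ± 4.75 CPM in the 50 to 80% bin and stood at 16.0 ± 4.09 at the Krt13 end (SD, n = 6). Its log2 change between the ends was 1.31 (SE 0.19; limma, adjusted p = 9.6e-05). Grhl3 was highest in the 50 to 80% bin in 6 of 6 libraries on plain CPM and in 5 of 6 with TMM, while Grhl1 was highest at the Krt13 end in 2 of 6 on plain CPM, where the other 4 peaked before it, and in 5 of 6 with TMM. The difference in shape between these genes was not tested.

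Zfp750, the promoter of terminal differentiation, came up early and did not keep rising. It read 70.5, 46.5 and 95.0 CPM at the Krt14 end in Cyto-ID Low F2, M3 and F6 and 105, 40.3 and 124 CPM in Cyto-ID High F2, M3 and F6. In the 50 to 80% bin it read 278, 176 and 266 CPM and 309, 164 and 282 CPM. Both M3 libraries were the lowest at each of these places, and all 6 libraries were higher in the later bin. The mean at the Krt13 end was 188 ± 53.98 CPM (SD, n = 6), under the mean of 246 ± 60.8 in the 50 to 80% bin. The log2 change between the ends was 1.86 (SE 0.13; limma, adjusted p = 1.6e-07). The mean reached 98.2% of its highest bin in the 20 to 50% bin on plain CPM and 88.7% with TMM, where Elf5 stood at 49.2% and 36.3%.

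**Figure D2:**
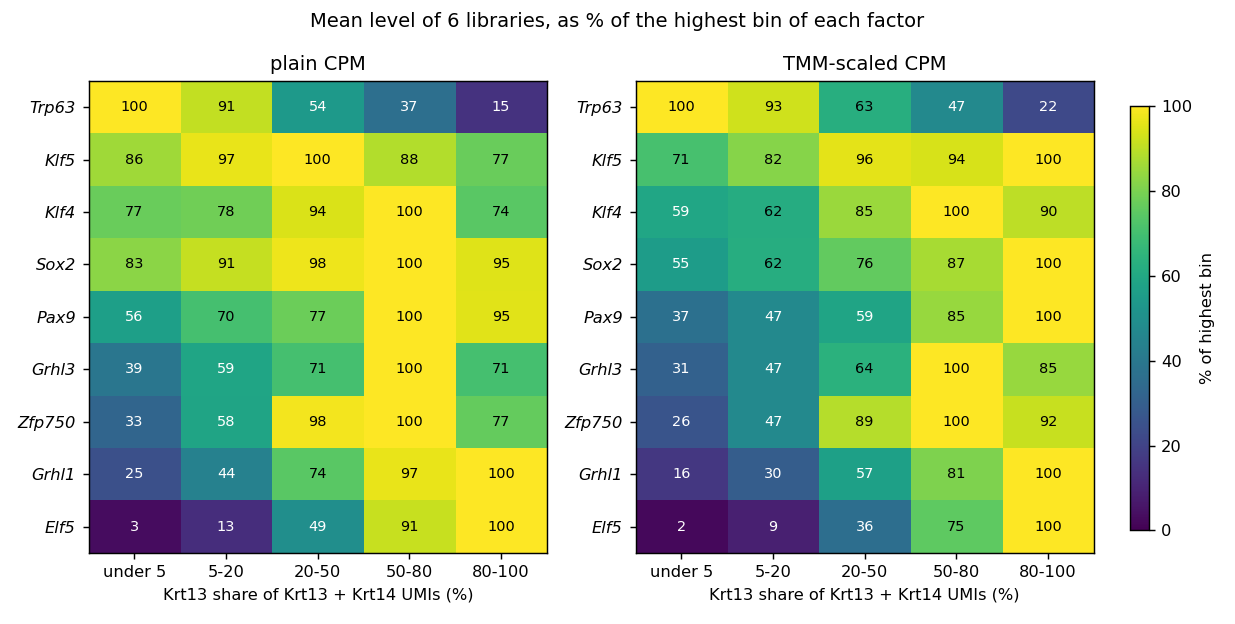
Mean level of 6 libraries in each bin of the Krt13 share (columns), as a percentage of the highest bin of the same factor (colour and printed value), on plain CPM (left) and with TMM scaling (right). Trp63 is highest at the Krt14 end and Elf5 and Grhl1 at the Krt13 end on both scalings, and Grhl3, Zfp750 and Klf4 in the 50 to 80% bin; the highest bin of Sox2, Pax9 and Klf5 moves with the scaling.

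Pax9, a factor of foregut identity, was higher at the Krt13 end in 6 of 6 libraries. It averaged 42.2 ± 11.7 CPM at the Krt14 end and 71.5 ± 14.3 at the Krt13 end (SD, n = 6), ranges of 25.5 to 58.3 and 55.9 to 91.8 that overlapped slightly. The log2 change was 1.34 (SE 0.11; limma, adjusted p = 7.8e-07), and 0.77 on plain CPM (adjusted p = 1.3e-04). Sox2 averaged 69.98 ± 11.9 CPM at the Krt14 end and 80.5 ± 17.5 at the Krt13 end (SD, n = 6). Its log2 change was 0.76 with TMM (limma, adjusted p = 1.2e-04) and 0.19 on plain CPM (adjusted p = 0.24). Sox2 was thus present in each bin, between 69.98 and 84.8 CPM on average, and whether it rose depended on the scaling.

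Klf4 and Klf5 were highest in the middle of the axis on plain CPM, and their ends did not differ past the threshold there. Klf4 averaged 201 ± 51.6 CPM at the Krt14 end, 261 ± 57.6 in the 50 to 80% bin and 195 ± 14.6 at the Krt13 end (SD, n = 6). The log2 change between the ends was 0.57 with TMM (limma, adjusted p = 6.8e-04) and -0.01 on plain CPM (adjusted p = 0.91). Klf5 averaged 330 ± 52.95 CPM at the Krt14 end, 385 ± 53.5 in the 20 to 50% bin and 298 ± 28.8 at the Krt13 end (SD, n = 6). Its log2 change was 0.44 with TMM (limma, adjusted p = 0.0039) and -0.14 on plain CPM (adjusted p = 0.23), so both Klf factors changed sign with the scaling. A Klf4 UMI was found in 16.5% of thinned cells at the Krt14 end and a Klf5 UMI in 26.1%, and at the Krt13 end the shares were 15.8% and 23.1%.

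**Figure D3:**
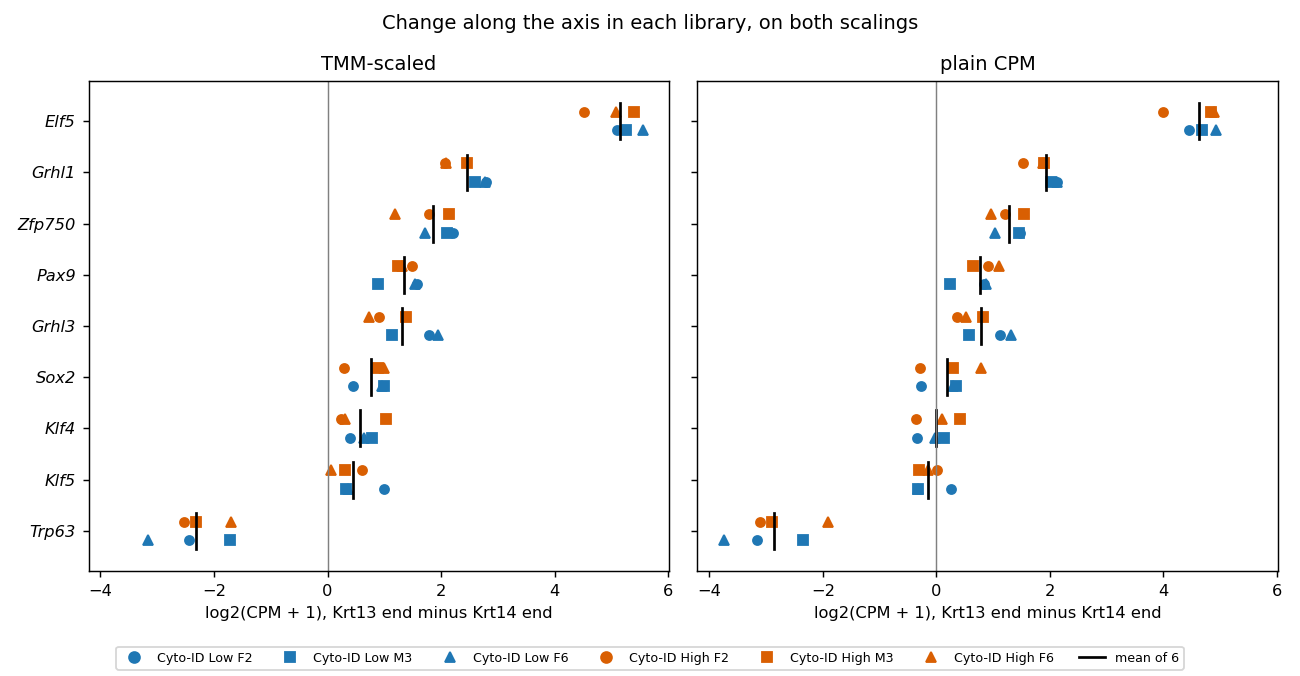
Change of each factor between the ends of the axis, as log2(CPM + 1) at the Krt13 end minus that at the Krt14 end (x axes), in each library (points; blue Cyto-ID Low, orange Cyto-ID High), with TMM scaling (left) and on plain CPM (right); black bars are means of 6. Elf5 averages 5.15 and Trp63 -2.31 with TMM, and Sox2, Klf4 and Klf5 lie above 0 on the left and straddle it on the right.

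The surrounding program moved in both directions at the ends of the axis, with the list genes chosen with earlier results of these data known. Beside the counts below, 27.9% of all genes were higher and 35.5% lower with TMM. On plain CPM the shares were 15.1% and 58.1%. The genes that lead each list were ranked among called genes that averaged 10 CPM or more. Of 21 tested differentiation and barrier genes, 19 were higher and 0 lower (median log2 change 3.04, against -0.13 for all genes), or 17 and 1 on plain CPM, led by Mal (7.77, adjusted p = 2e-11), Sprr2f (7.57, adjusted p = 1.5e-10) and Krt4 (6.95, adjusted p = 1.1e-11; limma). Dsg1a (0.67) and Alox12 (-0.63) did not pass the test, and without Cyto-ID High F6 there were 19 higher and 1 lower of 20. Of 17 tested basal and p63-linked adhesion genes, 14 were lower and 2 higher (median -2.53), led by the Notch ligand Jag2 (-4.85, adjusted p = 1.1e-08), the hemidesmosome collagen Col17a1 (-4.27, adjusted p = 1.1e-11) and the laminin chain Lamb3 (-4.11, adjusted p = 1.4e-08; limma). The 2 that were higher, Perp (0.75) and Egfr (0.48), did not pass on plain CPM. The basal keratin Krt15 did not pass the test, at 0.21 with TMM (limma, adjusted p = 0.59) and -0.37 on plain CPM. All 12 proliferation genes were lower (median -2.75), and 6 of 8 dissociation and stress genes were higher with TMM (median 1.08), among them Egr1 (1.77); on plain CPM 4 were higher and 1 lower. The part of these stress genes in the factors' change was not tested.

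Of 28 other epithelial transcription factors tested, 6 were higher and 10 lower with TMM (median -0.17), where 27.9% and 35.5% of all genes were. On plain CPM 4 were higher and 19 lower, where 15.1% and 58.1% of all genes were. These counts are near the background, and single genes are given as examples. Elf3, an ETS factor like Elf5, rose from 43.9 ± 12.95 to 641 ± 199 CPM (SD, n = 6), a log2 change of 4.42 (limma, adjusted p = 3.8e-11). Prdm1, a zinc-finger repressor, rose by 2.53 (adjusted p = 5.3e-08) and the AP-1 subunit Junb by 1.85 (adjusted p = 1.6e-08; limma). Among called genes that averaged 10 CPM or more, Cebpa (-1.43), Pitx1 (-1.08) and Myc (-0.94) had the largest declines. Their adjusted p was 1.9e-05, 6.7e-07 and 0.0052 in limma. Grhl2, the other grainyhead gene of this list, had a log2 change of 0.09 with TMM (limma, adjusted p = 0.55) and -0.46 on plain CPM.

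Within a library and bin, several of the factors were found in the same cells more often than their separate frequencies give. Every pair of the factors was counted, and those named here are examples. Pairs of other genes were not counted, so the ratios have no background to be set against. In cells thinned to 1000 UMIs, Grhl1 and Zfp750 were found together in 111 cells against 58.3 expected from their frequencies in each library and bin, a ratio of 1.90 that was above 1 in 6 of 6 libraries. Klf4 and Klf5 shared 1259 cells against 1097 (ratio 1.15, above 1 in 6 of 6), and Klf5 and Zfp750 887 against 744 (1.19, 6 of 6). Klf4 and Grhl3, whose windows are shown above, shared 79 cells against 52.5 (1.505, above 1 in 5 of 6). The ratio was under 1 in 6 of 6 libraries for Trp63 and Zfp750, with 122 cells against 147 (0.830). Trp63 and Elf5 shared 19 cells against 30.2 (0.630), few enough that single libraries ranged from 0.212 to 1.27. Cells still differ in position within a bin, and the part of this in the ratios was not tested.

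The genes most like each factor were ranked by Pearson's r of log2(CPM + 1) over 30 points, the 5 bins of 6 libraries centred within a library, among the 4660 genes that averaged 20 CPM or more. The points share libraries and depth, so r is a description. Elf5 was closest to Clic3 (0.99), followed by Evpl, a cornified envelope protein, Tmem265, Serpinb1a and Serpinb11. Grhl1 was closest to Nectin4 (0.97), followed by Clic3, Shroom3, Tmprss11b and Serpinb1a. Zfp750 was closest to Rhov (0.98), followed by Ly6d, Lypd3, the cross-linking enzyme Tgm1 and Rab25. Trp63 was closest to Apex1 (0.98), a DNA repair enzyme, followed by Anapc5, Vkorc1 and Rps27. Grhl3 was closest to Pmvk (0.90), a mevalonate pathway enzyme, followed by Gipc2, Gsta4, Nsdhl and Cyp4f39. Pax9 was closest to Zdhhc9 (0.89), followed by H2-K1, Atp6v1d and Taldo1. Klf4 was closest to Sfn (0.87), followed by Cyp3a13, Elovl1, Dstn and Dynll1. Sox2 was closest to Ahnak (0.82), followed by Dync1li2, Sh3d19, P3h4 and Kif1c, and Klf5 to Metap2 (0.81), followed by Cdc42ep1, Barx2, Dtx2 and Acot7. With TMM, 4 of the 5 remained for Elf5, Zfp750 and Grhl3, 3 for Trp63, Grhl1 and Pax9, 2 for Klf4, and 0 for Sox2 and Klf5. Between the factors themselves r was highest for Grhl1 and Elf5, at 0.96 on plain CPM and 0.97 with TMM.

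By founder state, 0 of the 9 factors passed the test over all kept cells. The comparison called 14 of 11620 genes (0.12%), all higher in Cyto-ID High, and the fit with the replicate label as a block called 71 (64 higher, 7 lower; 0.611%) and again 0 of the 9, with a lowest adjusted p among them of 0.20. At an unadjusted p under 0.05 the fit without the block held 928 genes, of which Elf5 was the one factor. Elf5 read 54.1, 45.4 and 89.0 CPM in Cyto-ID Low F2, M3 and F6 and 23.4, 36.4 and 27.9 CPM in Cyto-ID High F2, M3 and F6. Every Cyto-ID High library was under every Cyto-ID Low library, as was true of 8.13% of all genes. The log2 difference was -0.96 (95% interval -1.69 to -0.22; limma, adjusted p = 0.54), and -0.65 without Cyto-ID Low F6.

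**Figure D4:**
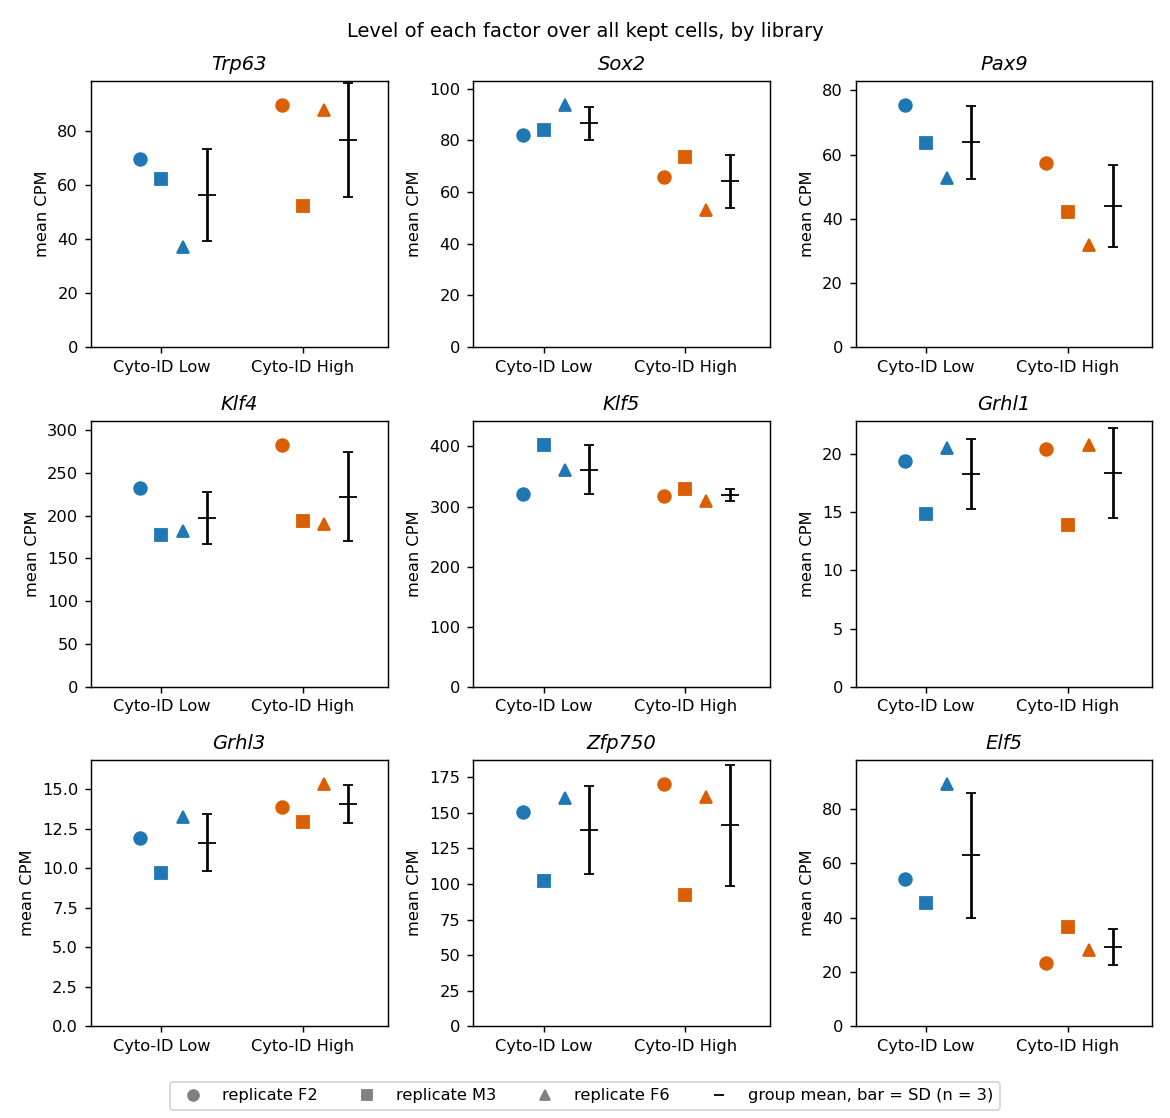
Mean plain CPM over all kept cells (y axes, linear, from 0) of each factor in the Cyto-ID Low (blue) and Cyto-ID High (orange) libraries; markers show replicates F2 (circle), M3 (square) and F6 (triangle), and black bars the mean and SD of 3. The groups do not overlap for Elf5 and Sox2, and 0 of the 9 factors passed the test.

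Sox2 was the other factor whose groups did not overlap over all cells. It read 82.0, 84.0 and 93.6 CPM in Cyto-ID Low F2, M3 and F6 and 65.8, 73.4 and 53.1 CPM in Cyto-ID High F2, M3 and F6, a log2 difference of -0.35 (95% interval -0.85 to 0.15; limma, adjusted p = 0.70). Pax9 was lower in Cyto-ID High in 3 of 3 pairs, at 43.9 ± 12.8 against 63.9 ± 11.4 CPM (SD, n = 3), with overlapping groups and an adjusted p of 0.64 in limma; the log2 difference of -0.47 was -0.30 without Cyto-ID High F6. Trp63 averaged 56.4 ± 17.2 CPM in Cyto-ID Low libraries and 76.7 ± 21.02 in the High ones (SD, n = 3; limma, adjusted p = 0.65), and the log2 difference of 0.53 was 0.29 without Cyto-ID Low F6. Grhl3 averaged 14.05 ± 1.19 and 11.6 ± 1.80 CPM, higher in Cyto-ID High in 3 of 3 pairs (SD, n = 3; limma, adjusted p = 0.70), with a log2 difference of 0.34 that was 0.21 without Cyto-ID Low M3. For Klf4, Klf5, Grhl1 and Zfp750 the log2 differences lay between -0.09 and 0.24, and their 95% intervals reached from -0.61 to 0.75, so changes of this size were not detectable with 3 libraries a group. The value at the upper end was that of Klf4, which was higher in Cyto-ID High in 3 of 3 pairs. It was 0.14 without Cyto-ID High F2 and 0.39 over cells with at least 1000 genes. Klf5 was lower in Cyto-ID High in 3 of 3 pairs on plain CPM, at 319 ± 10.0 against 361 ± 41.2 CPM (SD, n = 3). The share of all genes with a single direction in 3 of 3 pairs was not counted. These pair counts therefore have no background to be set against, and the F6 libraries are weakly paired, with a correlation of 0.15.

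The place of the cells along the axis was counted in each group, since a mean over all cells depends on it. The Krt13 end held 23.6%, 12.4% and 19.96% of cells on the axis in Cyto-ID Low F2, M3 and F6 and 10.96%, 12.0% and 6.97% in Cyto-ID High F2, M3 and F6. These shares leave out 1400 of the 4484 cells of Cyto-ID High F6, which the means over all cells include. Every Cyto-ID High library was under every Cyto-ID Low library. The means of 18.6% ± 5.74 and 9.99% ± 2.67 (SD, n = 3) differed with a two-sided exact permutation p of 0.10, the smallest that 3 against 3 allow. Adjusted over the 5 bins, this permutation p was 0.50. With libraries paired by replicate label, an exact sign-flip test gave p = 0.25, the smallest that 3 pairs allow. Over cells with at least 1000 genes the groups overlapped, at 14.1% in Cyto-ID High M3 and 11.7% in Cyto-ID Low M3. The exact permutation p was then 0.20. The Krt14 end held 36.7% ± 2.93 and 43.8% ± 8.46 of cells (SD, n = 3; exact permutation test, p = 0.30). With Cyto-ID High F2 left out, Cyto-ID High exceeded Cyto-ID Low there by 2.46 instead of 7.13 percentage points. Summed superficial markers at the Krt13 end averaged 3122 CPM in Cyto-ID High libraries against 6013 in the Low ones, with overlapping groups. Cyto-ID Low F2 stood highest at 10168 CPM. Cyto-ID High F2, at 4767 CPM, was above Cyto-ID Low M3 (4048) and F6 (3824). Summed proliferation genes over all cells were 269 to 361 CPM in Cyto-ID High libraries against 109 to 231 in the Low ones. The part of these markers in the Elf5 and Trp63 values over all cells was not tested.

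**Figure D5:**
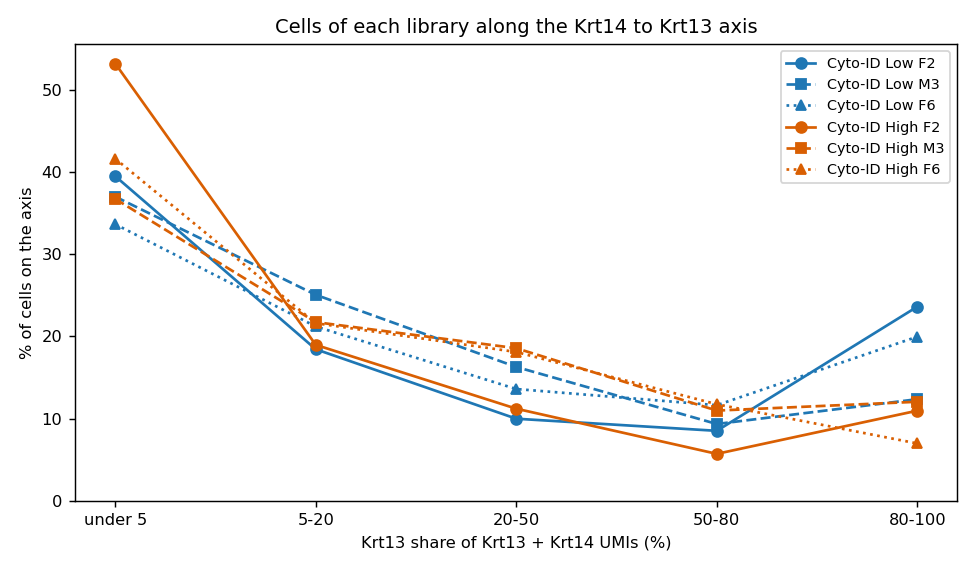
Share of the cells on the axis (y axis, percent) in each bin of the Krt13 share (x axis), one line per library (blue Cyto-ID Low, orange Cyto-ID High). At the Krt13 end the 3 Cyto-ID High libraries lie between 6.97% and 12.0%, under the 3 Cyto-ID Low libraries, the nearest of which is at 12.4%.

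Within bins, Elf5 was lower in Cyto-ID High in the middle of the axis. In the 20 to 50% bin it read 78.0, 68.4 and 136 CPM in Cyto-ID Low F2, M3 and F6 and 41.9, 48.95 and 43.6 CPM in Cyto-ID High F2, M3 and F6. In the 50 to 80% bin it read 173, 134 and 199 CPM and 83.4, 84.2 and 102 CPM. The groups did not overlap in either bin, on plain CPM or with TMM, where 11.4% and 7.98% of all genes showed this pattern on plain CPM. The groups overlapped at the Krt13 end, at 165 ± 61.6 and 118 ± 30.1 CPM (SD, n = 3), with a log2 difference of -0.50 (95% interval -1.28 to 0.27; limma, adjusted p = 0.99), which was -0.19 without Cyto-ID Low F6 and -0.28 without Cyto-ID High F2. At the Krt14 end they averaged 5.27 ± 1.33 and 3.90 ± 0.657 CPM (SD, n = 3; limma, adjusted p = 0.84). The middle bins were not tested.

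Grhl3 showed the opposite order at the basal side. At the Krt14 end it read 6.65, 6.17 and 7.92 CPM in Cyto-ID Low F2, M3 and F6 and 10.98, 8.44 and 13.4 CPM in Cyto-ID High F2, M3 and F6. The groups did not overlap there or in the 5 to 20% bin, on either scaling, as was true in this direction of 4.39% and 3.42% of all genes on plain CPM. At the Krt14 end the nearest values, in Cyto-ID Low F6 and Cyto-ID High M3, rest on 18 and 32 UMIs. The log2 difference at the Krt14 end was 0.71 (95% interval 0.12 to 1.31; limma, adjusted p = 0.55), and without Cyto-ID High F6 it was 0.51. The suprabasal markers are Krt4, Krt13, Sbsn and Krtdap. In the same bin they summed to 762 to 1447 CPM in the High libraries and 170 to 325 in the Low ones. Krtdap by itself averaged 1047 against 61.95 CPM over all cells, and its part in this sum was not tested. Proliferating markers in the bin averaged 279 against 150 CPM. The part of these markers in the Grhl3 difference was not tested. Grhl3 averaged, at the Krt13 end, 15.5 ± 5.72 and 16.6 ± 2.83 CPM (SD, n = 3; limma, adjusted p = 0.99). Of the other factors, Sox2 in the 50 to 80% bin and Klf5 at the Krt13 end were lower in every Cyto-ID High library on both scalings, and 7.98% and 3.39% of all genes showed this on plain CPM. Other separations held on 1 scaling only. With TMM, Klf4 was higher in every High library in the 20 to 50% bin, at 278 ± 41.7 against 203 ± 11.3 TMM-scaled CPM, and in the 50 to 80% bin, at 330 ± 32.1 against 237 ± 40.97 (SD, n = 3). Trp63 and Grhl1 were likewise higher in the 20 to 50% bin, at 57.5 against 35.4 and 31.1 against 20.7 TMM-scaled CPM. With TMM 6.07% and 5.52% of all genes separated in this direction in those bins, and on plain CPM these groups overlapped. On plain CPM alone Sox2 was lower in every High library in the 5 to 20% and 20 to 50% bins and Klf5 in the 20 to 50% and 50 to 80% bins, against 10.9% of all genes in the 5 to 20% bin and 11.4% in the 20 to 50% bin.

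None of these differences passed a test at an end of the axis. At the Krt14 end limma called 29 of 11659 genes (0.249%) and 0 of the 9, with adjusted p from 0.55 to 0.97, and with the replicate block 58 genes (0.497%) and 0 of the 9. The fit at the Krt13 end called 0 of 10557 genes (0%), with 226 at an unadjusted p under 0.05, and 0 of the 9. The change along the axis was also compared between the groups: 1 of 12118 genes was called (0.00825%), Lcn2, named after its value was seen, and 16 with the block (0.132%). None of the 9 was called in either fit, with adjusted p from 0.81 to 1 without the block. In this fit the differences in change were -0.62 for Grhl3 (95% interval -1.41 to 0.18) and -0.52 for Grhl1 (-1.13 to 0.10), both a smaller rise in Cyto-ID High. Their sizes and order moved with the processing: in thinned cells they were -0.34 and -0.91, in equal-sized bins -0.33 and -0.40, and on plain CPM -0.43 and -0.33.

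Over all cells the median log2 difference of the 21 tested differentiation and barrier genes was -0.11, against -0.02 for all genes. Of the lists, this one alone held called genes there, 2 of 21, where 0.12% of all genes were called. Without Cyto-ID High F6 it held 1 of 20. Both of the 2 were higher in Cyto-ID High. They were Krtdap (1047 ± 396 against 61.95 ± 34.3 CPM; limma, adjusted p = 0.008) and Sprr1b (142 ± 58.9 against 16.1 ± 8.02 CPM; SD, n = 3; limma, adjusted p = 0.029), named after their values were seen. With the replicate block Sbsn was also called, and 1 of 28 other epithelial factors, Ovol1, at 36.9 ± 5.11 against 17.97 ± 1.38 CPM (SD, n = 3; limma, adjusted p = 0.046). The basal, proliferation and stress lists held 0 called genes in both fits, and the median difference of the 12 proliferation genes was 0.84 against -0.02 for all genes.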

How the data were processed

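The deposited tables hold natural log values of 1 plus UMIs per 10000 UMIs of the cell, a unit read from the values since no label gives it. Per the submitters' processing notes, Cell Ranger 6.0.0, Seurat 4 and the builds mm10 and GRCm38 were used; the annotation and cell filters are not given in the sources used here. After the log was undone, 100% of values were whole multiples of a cell's smallest step (tolerance 1e-06), which gave UMIs and CPM. No doublet caller was run. Each gene's CPM is its mean over cells, per library or bin. Fits used limma 3.58.1 in R 4.3.3 on log2(CPM + 1) with TMM factors (30% of log ratios and 5% of levels trimmed), a mean-variance trend and a filter that required 1 CPM or more in 3 or more units; the axis fit had a block for the library. The scripts were tested on simulated data. Libraries held 8457489 to 48957523 UMIs.

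The factors and gene lists were chosen with earlier results of these data known. All 9 factors were named, with up to 3 genes per list and direction among called genes that averaged 10 CPM or more and the 5 genes most like each factor, of which 1 each for Trp63 and Pax9 is not reported here. Replicate labels come from the titles. Deviations from group means correlated between same-labelled libraries at 0.76 (F2), 0.58 (M3) and 0.15 (F6) over 8878 genes, so by the rule that each exceed 0.1 the labels were taken to pair the libraries, although Cyto-ID Low F2 and Cyto-ID High F6 correlated at 0.17, above the F6 pair. Alternatives were a pseudocount of 0.1 CPM, no filter on low values, summed UMIs, plain CPM, thinned cells, at least 1000 genes, equal-sized bins, at least 20 keratin UMIs, the replicate block and leaving out each library. The profiles and gene likeness on the TMM scale were added after seeing the data. Promoter windows came from a RefSeq table on GRCm38.p6; Trp63, Klf5 and Zfp750 had no entry.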

Additional observations from a re-analysis of the deposited data

How the results depend on the processing

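Of 333 values recomputed for single factors, 324 kept their direction and side of the threshold. These covered all 9 factors along the axis and over all cells, and in the other fits only the factors with the largest differences. Between the groups no factor passed in the main fits, so for those values the count mostly records calls that stayed absent. Outside these 333 values signs also changed. Over the alternatives Elf5 ranged from -0.818 to 0.164 at the Krt14 end and Grhl3 from -0.205 to 0.367 at the Krt13 end. For the axis change between the groups, Trp63 ranged from -0.185 to 0.852. On plain CPM the axis change of Sox2 was 0.188 and no longer passed, and those of Klf4 (-0.0144) and Klf5 (-0.14) changed sign. Over all cells the difference between the groups, which passed in no fit, changed sign for Klf5 without Cyto-ID High F2 (0.00417), for Grhl1 on plain CPM (-0.000619) and without Cyto-ID Low M3 (-0.065) or Cyto-ID High F6 (-0.0434), and for Zfp750 without the same libraries (-0.113 and -0.053); with a library left out these ranged from -0.189 to 0.00417, -0.065 to 0.209 and -0.113 to 0.325. Along the axis 8 factors were higher and 1 lower in every alternative run but plain CPM. The cause was not tested.

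Counts of called genes between the groups moved more. Over all cells, 14 became 5 with a pseudocount of 0.1 CPM, 0 with no filter (1355 at an unadjusted p under 0.05), 26 on plain CPM, 25 in thinned cells and 71 with the replicate block; leaving out 1 library gave 6 (Cyto-ID High F2 or F6) to 15. At the Krt14 end, 29 became 7, 1 with no filter and 58 with the block, and 6 (Cyto-ID High F6) to 31 with a library left out, with 7 without Cyto-ID Low F6 and 15 without Cyto-ID High F2. At the Krt13 end, 0 became 23 with equal-sized bins, 3 without Cyto-ID Low F2 and 1 without Cyto-ID High F2, and stayed at 0 to 3 with a library left out. For the change along the axis between the groups, 1 became 16 with the block and 0 with a pseudocount of 0.1 CPM, no filter, summed UMIs, thinned cells, at least 1000 genes or at least 20 keratin UMIs, and 0 to 1 with a library left out. In each of these fits 0 of the 9 factors were called. The block changed no call of a factor, and the axis fit already has a block for the library.

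The difference in the share of cells changed sign in the 5 to 20% bin for thinned cells (0.145 percentage points) and without Cyto-ID Low M3 (0.948) or Cyto-ID High F2 (0.103), with a range of -2.36 to 0.948 over libraries left out, and in the 50 to 80% bin with at least 1000 genes (0.543), at least 20 keratin UMIs (1.23) and without Cyto-ID Low F6 (0.549) or Cyto-ID High F2 (1.53), with a range of -1.49 to 1.53.

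Depth limits the low factors: Grhl3 had 1989 and Grhl1 3005 UMIs in 25154 cells. It also limits single bins, as Trp63 had 262 UMIs at the Krt13 end and Elf5 276 at the Krt14 end.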
